A study of Mus musculus with 21 samples.

Results

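The mouse diploid embryonic stem (ES) cell line CS1-1 was set against mouse embryonic fibroblasts (MEF) on 6 of the 21 Affymetrix whole-genome arrays of the series, chosen by their titles: 3 arrays of CS1-1 and 3 of MEF. CS1-1 is a diploid line of 129 Sv background and was grown in N2B27 medium with 2i (a pair of kinase inhibitors) and the cytokine LIF. MEF were of CD1 background and were grown in DMEM with 10% fetal bovine serum. No sort was given for either culture, and no allele or agent beyond the medium. A second diploid ES line of 129 Sv background in the same medium, R1 (3 arrays), serves to show which differences from MEF were unlike in another ES line. CS1-1 is 1 line, so its values stand for that line. Cell type, strain background and medium differ together between CS1-1 and MEF and cannot be told apart. Per the labels the 3 arrays of each culture are biological replicates, but nothing says that they came from separate cultures. The p-values thus measure only the spread between arrays within groups, estimated over all 21 arrays.

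ES cells derive from the early epiblast and are held there by a network of transcription factors around Pou5f1 (Oct4), Sox2 and Nanog, to which LIF signalling and the inhibitors of 2i feed. They grow as compact colonies joined by E-cadherin. Embryonic fibroblasts are mesenchymal cells, which make fibrillar collagens, contractile actin bundles and secreted factors, and they are widely used as feeder cells and as the starting population for reprogramming. The comparison thus spans an epithelial, rapidly cycling cell and a stromal one.

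Of 18193 genes with a probe set of their own, 12749 were tested, namely those with all CS1-1 arrays or all MEF arrays above that array's 40th percentile. Levels are log2(signal + 9.70), where the signal is the MAS5 value and 9.70 an offset that damps noise at low signal. To pass, a gene needed a limma p under 0.05 after Benjamini-Hochberg adjustment, and a difference of at least 2-fold. In all, 5878 genes passed (46.1% of those tested), 3012 of them higher in CS1-1 (23.6%) and 2866 lower (22.5%). Every count of list members below is read against these shares. Differences of at least 16-fold numbered 271 up and 462 down, and differences of at least 64-fold 79 up and 128 down. Ranges of the 3 and 3 arrays did not overlap for 83.1% of the tested genes (44.7% higher and 38.4% lower in CS1-1), so separation of the arrays alone says little here. The median difference over the tested genes was 0.11.

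**Figure D1:**
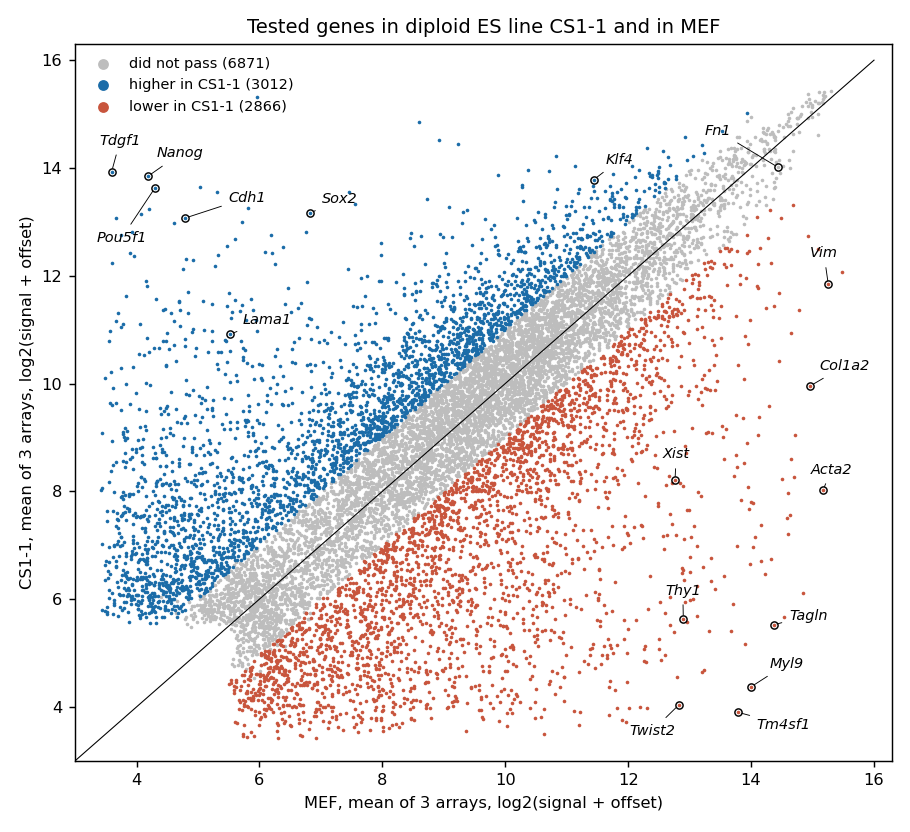
Mean level of each tested gene in MEF (x axis) and CS1-1 (y axis), both as log2(signal + 9.70) over 3 arrays; blue points passed as higher in CS1-1, red points as lower, grey points did not pass, and circles mark named genes. The 3012 higher genes reach the left edge, where MEF values are at background, and the 2866 lower genes reach the bottom edge, where CS1-1 values are at background.

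The labels were borne out by the defining genes of each cell type. All 10 ES cell markers were higher in CS1-1, and 8 of them were near background in MEF, that is, with a mean at or below the mean 40th percentile of the arrays (5.44 in both groups). For such a gene the fitted log2 difference rests on values without a measured level on one side, so it is no measure of rank and a lower bound of the fold is given for the main genes. It also entered the test only through its other group and could pass only as higher there. That held for 913 of the genes higher in CS1-1 and 880 of those lower. Genes with a mean above background but an array under its 40th percentile, such as Tagln and Thy1 in CS1-1, also entered through the other group alone. They are not in these 2 counts. Counts and medians of the lists below are therefore descriptions only. All 12 fibroblast markers were lower in CS1-1, at 0.0924% to 4.98% of the MEF signal (median 1.46%). Of the 12, 10 were still above background there. In R1 the same 12 stood at 1.81% to 36.3% (median 9.15%). The percentages are of the signal without the offset, unlike the folds given below. The lowest in CS1-1 is that of Twist2, which was near background there, so it is not a measured level. These are bulk samples, in which fewer cells of a type and less RNA per cell cannot be told apart. The 3′ minus 5′ difference of the Actb control probe sets, a sign of RNA integrity, was 0.57 ± 0.05 in CS1-1 and 0.34 ± 0.06 in MEF (SD, n = 3) and did not overlap, while that of Gapdh was -0.26 ± 0.06 and -0.21 ± 0.04. Its part in the results was not tested.

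The transcription factors of pluripotency were higher in CS1-1 almost without exception. Of 28 listed factors tested, 27 were higher (96.4%), 1 was lower and the median difference was 4.10. In MEF 15 of the 28 were near background, whereas all 28 were above it in CS1-1. Pou5f1, the POU-domain factor that defines the network, read 13.63, 13.62 and 13.64 in CS1-1 and 4.56, 3.99 and 4.35 in MEF. The CS1-1 arrays lay within a few hundredths of each other and far above every MEF array. Its difference was 9.33 ± 0.11 (SE; adjusted p = 3.01e-23, limma), or at least 292-fold with MEF set at background.

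Nanog, a homeodomain factor of the naive state, read 13.87, 13.82 and 13.85 in CS1-1 and 3.65, 3.84 and 5.06 in MEF. The third MEF array was the highest of its group and still near background. The difference was 9.66 ± 0.25 (adjusted p = 1.03e-16, limma), at least 339-fold. Sox2, which binds DNA together with Pou5f1, read 13.19, 13.11 and 13.17 in CS1-1 against 6.59, 7.13 and 6.74 in MEF. Its MEF values lay above background, so the 80.9-fold difference (6.34 ± 0.19) is not a bound.

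The remaining factors of the usual reprogramming set had other patterns. Klf4, a Kruppel-like factor downstream of LIF, read 13.82, 13.78 and 13.75 in CS1-1 and 11.38, 11.43 and 11.51 in MEF. It was thus well above background in both and only 5.07-fold higher in CS1-1 (2.34 ± 0.07; adjusted p = 6.58e-17, limma). Myc, the growth regulator, ran the other way, with 6.78, 7.15 and 7.37 in CS1-1 and 11.17, 11.14 and 11.20 in MEF. It was 16.8-fold lower in CS1-1 (-4.07 ± 0.18), whereas its paralogue Mycn was higher by 3.66 ± 0.25.

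Among the remaining factors, Zfp42 (Rex1, at least 208-fold), Sall4 (at least 222-fold), Nr0b1 (Dax1, at least 165-fold) and Tfcp2l1 (at least 296-fold) were each near background in MEF. Klf5 was higher by 3.09 and the Wnt-responsive factor Sp5 by 5.86. Foxd3 had the smallest rise (1.18 ± 0.26). The one factor that fell was Rarg, a retinoic acid receptor (-1.69 ± 0.22).

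The start sites of Nanog and Zfp42 show the binding motifs of this network in the 300 bases held for each RefSeq promoter (250 before to 50 after the start site, GRCm38.p6). The composite Oct-Sox motif, an Oct site and a Sox site with a free base between them, was searched on both strands in a single spelling, so that variants of it were not counted, and occurred in 12 of 32851 promoter windows (0.0365%), among which Nanog was the only one of 23 pluripotency factors with a window. It lies 75 to 64 bases before the Nanog start site. The plain octamer ATTTGCAT occurred in 1.74% of windows and 1.97% of genes with a window. It was found in 2 of the 23 factors (8.70%), Zfp42 and Zfp296, in 2 of 42 contractile genes (4.76%), Tln1 and Srf, and in none of the 18 other genes of naive ES cells or the 23 epithelial genes with a window. In Zfp42 it lies 186 to 179 bases before the start site. Each line gives 120 bases upstream of the start site, 5′ to 3′ on the strand of the gene, with the motif in capitals, at chr6:122707369-122707488 (plus strand) for Nanog and chr8:43307106-43307225 (minus strand) for Zfp42. A match is a description of letters and not a measured site.
Nanog: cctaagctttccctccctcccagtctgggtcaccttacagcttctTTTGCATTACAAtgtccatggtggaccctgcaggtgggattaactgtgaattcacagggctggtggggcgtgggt
Zfp42: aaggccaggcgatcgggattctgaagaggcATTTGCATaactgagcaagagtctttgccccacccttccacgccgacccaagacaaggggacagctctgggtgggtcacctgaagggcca

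Other genes of naive ES cells were higher in 29 of 30 cases (96.7%; median 6.11). In MEF 19 of the 30 were near background and entered the test through CS1-1 alone. Tdgf1 (Cripto), a co-receptor for Nodal, was at background in MEF. It read 13.93, 13.95 and 13.91 in CS1-1 and 3.64, 3.66 and 3.48 in MEF. All MEF arrays lay at the bottom of the scale, and the difference of 10.33 ± 0.15 (adjusted p = 4.95e-22, limma) gives at least 359-fold. Dppa5a, a small RNA-binding protein of ES cells, was 658-fold higher (9.36 ± 0.10). The embryonic growth factor Fgf4 was at least 126-fold higher, and the X-linked tumour antigen gene Trap1a at least 198-fold. Nodal (5.91) and its family members Gdf3 (6.26) and Lefty2 (5.35) were higher together with Tdgf1. The member that did not pass was Fgfr4 (0.62 ± 0.33).

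The 15 genes with the largest fitted rises were Tdgf1, Nanog, Trap1a, Dppa5a, Pou5f1, Zfp42, Sall4, Morc1, Nr0b1, Calcoco2, Tfcp2l1, Fgf4, Trpm1, 2210409E12Rik and Cdh1, from 10.33 to 8.28. In 14 of them MEF was near background, so their order among themselves is not measured, and their lower bounds run from 112-fold to 359-fold. Dppa5a, the other, was above background in both groups at its 658-fold. Most are known genes of the ES or germ cell state. Exceptions by textbook role are Calcoco2 (Ndp52), an autophagy receptor (at least 112-fold), and Trpm1, an ion channel (at least 122-fold). Their MEF values ran from 3.44 to 3.88 for Calcoco2 and from 3.75 to 4.11 for Trpm1.

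Genes of the primed epiblast, the later state that 2i medium holds back, were more often higher than lower in CS1-1. Of 15 matched, 11 were tested, 7 were higher (63.6%; 4 with a filter at the 60th percentile) and 1 was lower. Of the 15, 9 were near background in MEF and 5 in CS1-1. Dnmt3b was higher by 4.21, and Zic2 and Sox1, near background in MEF, were at least 4.1-fold and 2.6-fold higher. Otx2, a factor of the exit from the naive state, read 6.54, 6.45 and 7.12 in CS1-1 and 3.61, 3.42 and 3.45 in MEF. The groups did not overlap, but MEF was near background and the bound is only 2.40-fold. Fgf5, the classic marker of the primed state, was near background in CS1-1 (3.44, 3.49 and 4.52) and higher in MEF (7.13, 7.53 and 6.88). It was therefore lower in the ES line (-3.36 ± 0.47; adjusted p = 1.71e-06, limma), at least 3.34-fold.

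**Figure D2:**
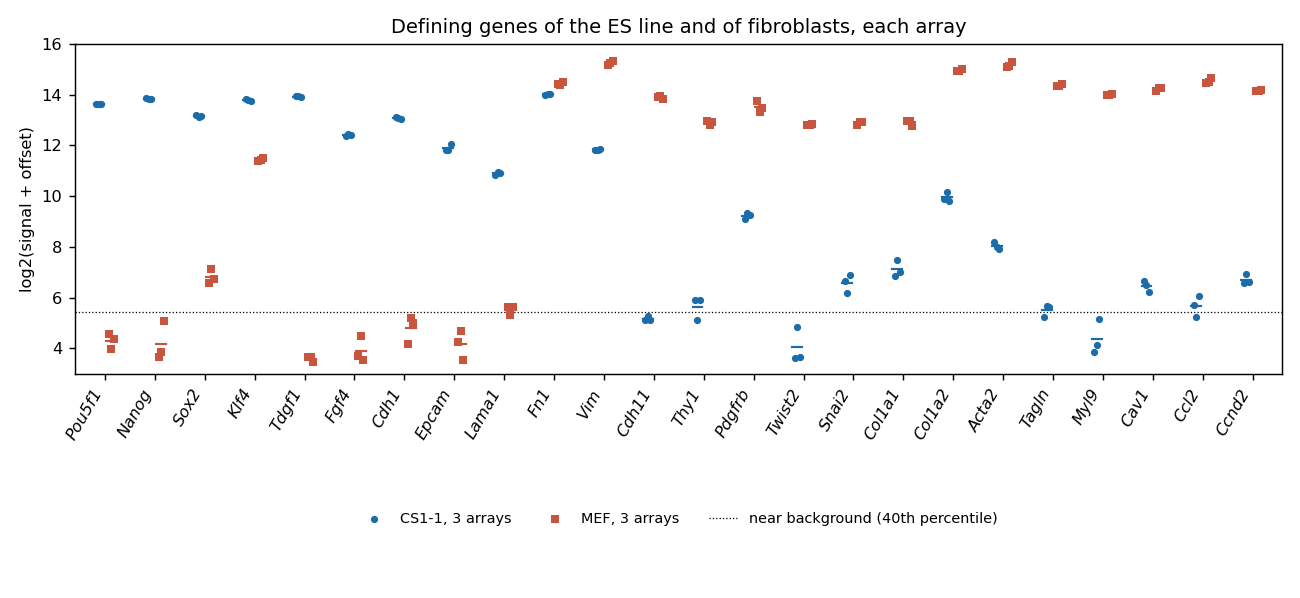
Level of 24 named genes on each array as log2(signal + 9.70); blue circles are the 3 CS1-1 arrays, red squares the 3 MEF arrays, short bars the group means, and the dotted line the 40th percentile of MEF arrays (5.44). Pluripotency and epithelial genes sit high in CS1-1 and mostly under the line in MEF. Mesenchymal genes other than Fn1 sit high in MEF and lower in CS1-1. Cdh11, Twist2 and Myl9 have CS1-1 means under the line, and most of the others lie above it, up to Vim at 11.84. Fn1 is the gene for which both groups lie close together, between 13.99 and 14.50.

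Genes silenced by DNA methylation in somatic cells and read in the germline were higher in 19 of 20 tested (95%; median 2.78). Of 28 matched, 25 were near background in MEF, so members entered the test through their CS1-1 values, and the count is a description only. With a filter at the 60th percentile 11 members were higher. The homeobox gene Rhox5 was higher by 7.07 ± 0.23 and Dazl, an RNA-binding protein of germ cells, by 6.61 ± 0.20. The meiotic axis genes Sycp3 (4.96) and Hormad1 (4.10) were also higher. Brdt did not pass (0.75 ± 0.36).

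Epithelial genes were higher in CS1-1 and mesenchymal factors lower. Of 34 adhesion and junction genes tested, 28 were higher (82.4%; median 3.12), 1 was lower and 5 did not pass. Of 38 matched, 21 were near background in MEF and 3 in CS1-1, so many entered the test through CS1-1 alone. Cdh1 (E-cadherin) read 13.11, 13.06 and 13.05 in CS1-1 and 4.17, 5.21 and 5.00 in MEF. No MEF array rose above background, and the difference of 8.28 ± 0.29 (adjusted p = 1.47e-14, limma) gives at least 198-fold. Epcam, a surface adhesion molecule, read 11.83, 11.83 and 12.04 against 4.24, 4.69 and 3.54, at least 88.1-fold. The desmosomal cadherin Dsg2 (7.08), the membrane protease St14 (5.75) and the tight junction protein Cldn4 (5.74) followed. Cdh3 (P-cadherin) was the member that was lower (-1.19 ± 0.25), a call lost without CS1-1 replicate 2 (-0.95) and with the mean over its probe sets (-0.48). The keratins Krt18 (0.25) and Krt19 (-0.69) and the plakophilin Pkp2 (-0.13) did not pass.

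Of 44 mesenchymal transcription factors tested, 36 were lower in CS1-1 (81.8%; median -2.75), 1 was higher and 7 did not pass. Of 50 matched, 28 were near background in CS1-1 and 6 in MEF, so many entered the test through MEF alone. Twist2, a bHLH factor of dermal mesenchyme, read 3.63, 4.83 and 3.64 in CS1-1 and 12.79, 12.82 and 12.85 in MEF. The CS1-1 arrays were near background, and the difference was -8.79 ± 0.29 (adjusted p = 2.21e-16, limma), at least 167-fold. Prrx1, a homeobox factor of limb mesenchyme, was at least 236-fold lower and Nfix at least 134-fold. Snai2 (Slug), a repressor of Cdh1, read 6.67, 6.19 and 6.90 against 12.82, 12.91 and 12.91, a 78.8-fold difference. Twist1 was near background in CS1-1 and lower by at least 23.6-fold (-4.92 ± 0.35). Gata4 was the 1 member higher in CS1-1 (1.01 ± 0.38, at least 1.18-fold against a MEF group near background), and it no longer passed without CS1-1 replicate 1 (0.98) or 3 (0.94) or MEF replicate 2 (0.63). Tcf4 (-0.43), Ahr (0.29) and Glis2 (0.13) did not pass.

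SNAI and ZEB repressors bind the E-box CAGGTG, and the epithelial promoters are shown for that reason. The motif, searched on both strands, occurred in 20.2% of all promoter windows and in 22.6% of genes with a window. It occurred in 20 of the 23 epithelial genes with a window (87%), 10 of 18 other genes of naive ES cells (55.6%), 7 of 23 pluripotency factors (30.4%) and 7 of 42 contractile genes (16.7%). The lines give 120 bases upstream of the start sites of Epcam (chr17:87635859-87635978, plus strand), Cldn4 (chr5:134946935-134947054, minus strand) and Krt8 (chr15:102004364-102004483, minus strand) in GRCm38.p6, from RefSeq, with the motif in capitals on the strand of the gene. The first match shown lies 19 to 14 bases before the start site in Epcam, 14 to 9 in Cldn4 and 111 to 106 in Krt8. Epcam has 2 matches upstream of its start site, of which only the 1 nearer to it falls in the printed line. Krt8, a keratin that was higher in CS1-1 by 1.33 ± 0.13, was chosen for display after its values were seen.
Epcam: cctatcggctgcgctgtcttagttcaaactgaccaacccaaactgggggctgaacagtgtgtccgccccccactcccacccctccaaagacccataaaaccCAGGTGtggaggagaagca
Cldn4: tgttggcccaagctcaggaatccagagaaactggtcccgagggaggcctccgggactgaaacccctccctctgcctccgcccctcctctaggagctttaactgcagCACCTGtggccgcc
Krt8: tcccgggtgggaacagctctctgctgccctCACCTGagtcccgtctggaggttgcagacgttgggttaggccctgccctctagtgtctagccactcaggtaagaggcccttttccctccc

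Extracellular matrix genes were among the most lowered. Of 27 collagen chains tested, 24 were lower in CS1-1 (88.9%; median -4.75). Col1a2, a chain of fibrillar collagen I, read 9.88, 10.16 and 9.82 in CS1-1 and 14.92, 14.94 and 15.02 in MEF. It was 32.1-fold lower (-5.01 ± 0.16; adjusted p = 6.28e-16, limma) yet well above background in CS1-1. Its partner Col1a1 was 55.3-fold lower and Col3a1 26.9-fold. The collagen VI chains Col6a3 (-7.34) and Col6a1 (-6.96) and Col12a1 (-7.13) were above background in both groups, and Col8a1, near background in CS1-1, was at least 137-fold lower. Basement membrane chains Col4a1 (-6.31) and Col4a2 (-6.14) were also lower. The exceptions were Col13a1 (1.22 ± 0.34) and Col9a3 (1.73 ± 0.40), both higher in CS1-1 (neither with an offset of 50 or the 60th-percentile filter), and Col18a1 (-0.46), which did not pass.

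Of 40 other matrix proteins tested, 33 were lower (82.5%), 3 were higher and 4 did not pass. Fibromodulin (Fmod) was at least 108-fold lower, and the matricellular proteins Thbs1 (-7.58), Thbs2 (-7.43) and Tnc (-7.40) were lower in every array. The 3 that were higher were basement membrane proteins. Lama1, the laminin chain of the first embryonic basement membranes, read 10.84, 10.97 and 10.92 in CS1-1 and 5.63, 5.31 and 5.62 in MEF. The groups were far apart, with a 42.0-fold difference (5.39 ± 0.11; adjusted p = 4.07e-20, limma). Nid2 (3.32) and Lama5 (2.03) were the others, while Lamb1 was lower (-3.12) and Lamc1 did not pass (0.72). Fibronectin (Fn1) was high in both, at 13.99, 14.04 and 14.01 in CS1-1 and 14.42, 14.39 and 14.50 in MEF. Its groups did not overlap, but the difference of -0.43 ± 0.06 (adjusted p = 2.47e-06, limma) fell short of 2-fold, and with the mean over its probe sets it was 0.24.

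Matrix processing enzymes were lower in 33 of 38 tested (86.8%; median -4.29), and none was higher. The metalloproteinases Mmp3 and Mmp13 were at least 158-fold and 40.1-fold lower, the hyaluronan synthase Has2 at least 54.4-fold and the inhibitor Timp3 by -6.35. Loxl1, which cross-links elastin, was lower by a log2 difference of -6.63 ± 0.11. Crtap and Plod2, which act on collagen inside the cell, did not pass (both -0.94).

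Genes of the contractile cytoskeleton were mostly lower in CS1-1. Of 49 contractile and focal adhesion genes tested, 40 were lower (81.6%; median -3.41), 1 was higher and 8 did not pass. Myl9, the regulatory light chain of smooth muscle myosin, read 3.85, 4.14 and 5.14 in CS1-1 and 14.00, 13.98 and 14.03 in MEF. The CS1-1 arrays were near background and spread over more than 1 log2 unit, whereas the MEF arrays were almost equal. The difference was -9.63 ± 0.32 (adjusted p = 3.11e-16, limma), at least 379-fold. Tagln (SM22), an actin-binding protein, read 5.25, 5.67 and 5.64 against 14.33, 14.35 and 14.42, a 460-fold difference. Its CS1-1 mean was only just above background.

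Acta2 (smooth muscle actin), the marker of myofibroblasts, was 142-fold lower in CS1-1 (-7.14 ± 0.09). Actg2 (at least 164-fold), Cnn1 (at least 54.5-fold) and the stress-responsive Ankrd1 (at least 76.5-fold) were lower as well. The intermediate filament Vim stayed well expressed in CS1-1, at 11.84, 11.82 and 11.86, but was 10.7-fold lower than in MEF. Csrp2, a LIM-domain protein, was the 1 member that was higher (1.79 ± 0.09), and 2 were higher without CS1-1 replicate 1, without MEF replicate 2, with quantile normalisation or with an offset of 1. Cnn3 (0.26), Dstn (-0.73) and Ccn2 (-0.63) did not pass.

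Serum response factor binds the CArG box, a 10-base element of paired C and G ends around an A and T core, and contractile promoters are shown for it. The box occurred in 1.63% of promoter windows and 1.81% of genes with a window, and in 8 of 42 contractile genes with a window (19%): Cnn2, Myl9, Myl6, Vcl, Lima1, Fhl1, Fhl2 and Srf. None of the 23 pluripotency factors or the 23 epithelial genes with a window held it. The lines give 120 bases of Myl9 (chr2:156775273-156775392, plus strand), Vcl (chr14:20929148-20929267, plus strand) and Fhl2 (chr1:43196768-43196887, minus strand) in GRCm38.p6, from RefSeq, with the box in capitals. It lies 161 to 152 bases before the start site in Myl9, 227 to 218 in Vcl and 96 to 87 in Fhl2. Vcl, which links integrins to actin, was lower in CS1-1 (-2.34 ± 0.06), as was the LIM-domain cofactor Fhl2 (-4.97 ± 0.43), while Myl6 (-0.48) and Lima1 (-0.60) did not pass. The genes of this paragraph other than Myl9 were named after their values were seen.
Myl9: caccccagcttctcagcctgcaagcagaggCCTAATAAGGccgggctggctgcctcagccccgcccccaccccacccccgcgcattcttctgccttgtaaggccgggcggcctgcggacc
Vcl: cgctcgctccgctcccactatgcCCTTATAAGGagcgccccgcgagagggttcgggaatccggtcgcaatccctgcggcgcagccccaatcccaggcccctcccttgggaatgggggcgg
Fhl2: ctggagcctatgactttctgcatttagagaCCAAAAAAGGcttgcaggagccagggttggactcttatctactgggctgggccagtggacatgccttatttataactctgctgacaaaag

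Caveolae, small coated invaginations of the cell membrane, were represented by 6 tested genes, all lower in CS1-1 (median -6.15). Cav1, the coat protein, read 6.65, 6.50 and 6.22 in CS1-1 and 14.16, 14.25 and 14.25 in MEF. It was 217-fold lower (-7.76 ± 0.20; adjusted p = 5.00e-18, limma). Cavin2 (at least 116-fold), Cav2 (at least 59.8-fold) and Cavin3 (at least 45.4-fold) were near background in CS1-1.

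Surface proteins of fibroblasts were lower in 34 of 37 tested (91.9%; median -3.44). Cdh11, the cadherin of mesenchymal cells, read 5.10, 5.26 and 5.13 in CS1-1 and 13.91, 13.95 and 13.84 in MEF, at least 352-fold lower. Thy1, used to tell fibroblasts from reprogrammed cells, was 154-fold lower (-7.26 ± 0.27). The PDGF receptors were unequal, with Pdgfra 58.6-fold lower and Pdgfrb 19.8-fold lower, the second at 9.09, 9.32 and 9.25 in CS1-1. The hyaluronan receptor Cd44 (-7.03), the kinase Axl (-6.87) and the oncostatin receptor Osmr (-7.38) fell by similar amounts. The tetraspanin Cd9 was higher in CS1-1 (1.45 ± 0.35), and the receptors Eng (-0.20) and Il6ra (-0.68) did not pass.

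Of 40 growth factors and cytokines tested, 34 were lower in CS1-1 (85.0%; median -3.63). Of 42 matched, 19 were near background in CS1-1 and 2 in MEF. Ccl2, a monocyte chemokine, read 5.72, 5.22 and 6.06 in CS1-1 and 14.46, 14.49 and 14.67 in MEF, a 469-fold difference (-8.87 ± 0.30; adjusted p = 2.08e-15, limma). Its CS1-1 mean was only just above background. The chemokines Cxcl5 and Ccl7 were at least 217-fold and 300-fold lower, Wnt5a at least 96.0-fold, and Il6 at least 44.6-fold. Ptn (pleiotrophin) was at least 117-fold lower, but with an offset of 1 another of its probe sets was used, which differed by -0.36. Igf2 read 7.67, 7.83 and 7.88 against 14.01, 13.95 and 14.04, a 73.8-fold difference. Lif itself was 2.64-fold lower in CS1-1 (-1.40 ± 0.18; -0.89 and short of 2-fold with the mean over its probe sets). The 4 that were higher were Igfbp2 (3.87), Mdk (1.66), Sfrp1 (1.31) and Pdgfa (1.26).

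The 15 genes with the largest fitted falls came mostly from these groups: Tm4sf1, Myl9, Ccl2, Tagln, Twist2, S100a4, Cdh11, Cxcl5, Ccn4, Ptn, Ccl7, Actg2, Fads3, Fmod and U90926, from -9.89 to -8.16. In 12 of them CS1-1 was near background, with lower bounds of 88.6-fold to 379-fold and no measured order. The means of Ccl2, Tagln and S100a4 were above background in both groups. For Ccl2 (5.67) and Tagln (5.52) the CS1-1 mean was only just above 5.44, with an array under it, so their folds rest on values close to background. Tm4sf1, a membrane protein of migrating cells, read 3.56, 4.32 and 3.81 in CS1-1 and 13.65, 13.69 and 14.04 in MEF, at least 327-fold lower. S100a4, a calcium-binding protein also known as fibroblast-specific protein, was 425-fold lower (-8.73 ± 0.25). Fads3, of the fatty acid desaturase family, was at least 91.8-fold lower.

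In the TGF-beta and BMP pathway, 25 of 42 tested members were lower (59.5%), 7 were higher (16.7%) and 10 did not pass. Ligands stood on both sides. Tgfb3 (-7.19), Inhba (-7.23) and the BMP antagonist Grem1 (-7.15) were lower in CS1-1, as was the latent TGF-beta binding protein Ltbp2 (-7.63). Nodal, Gdf3 and Tdgf1, given above, were higher, with Bmp7 (2.42 ± 0.44) and the activin receptor Acvr2b (3.77 ± 0.19). The shared transducer Smad4 (-0.40) and the repressor Skil (-0.31) did not pass.

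**Figure D3:**
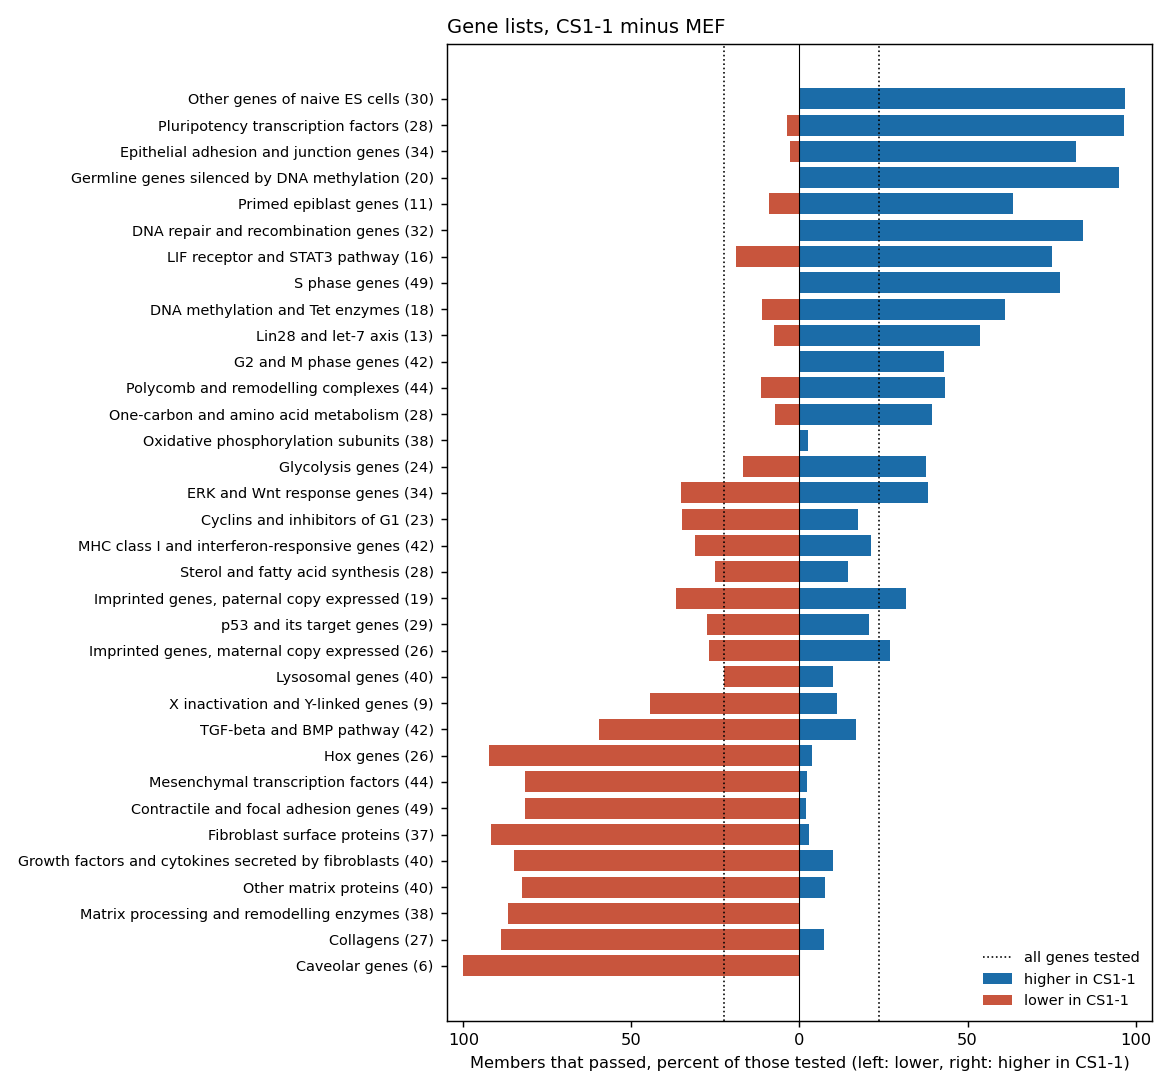
Share of the tested members of each gene list that passed as higher (blue, right) or lower (red, left) in CS1-1, in percent, with the number tested in brackets and lists ordered by median difference; dotted lines mark the shares over all 12749 tested genes, 23.6% higher and 22.5% lower. Naive, pluripotency and germline lists extend furthest right. Caveolar (100%), Hox (92.3%) and fibroblast surface (91.9%) lists extend furthest left, and oxidative phosphorylation genes stay near 0 on both sides.

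Hox genes, which hold positional identity in mesenchyme, were lower in CS1-1 in 24 of 26 tested (92.3%; median -2.74). Of 33 matched, 22 were near background in CS1-1 and 8 in MEF. Hoxc8 read 5.74, 4.48 and 4.70 in CS1-1 and 9.96, 9.89 and 9.93 in MEF (-4.95 ± 0.27; adjusted p = 1.01e-12, limma), at least 22.5-fold lower. Hoxc5 (at least 10.1-fold), Hoxb2 (13.3-fold), Hoxa9 (15.5-fold) and Hoxa10 (8.85-fold) were also near background in CS1-1. In the remaining cluster Hoxd8, named after its values were seen, was above background in both groups (5.90 and 9.52 on average) and 12.3-fold lower (-3.62 ± 0.21). The exceptions lay at the 5′ end of 2 clusters. Hoxb13 was higher in CS1-1 (1.33 ± 0.32, at least 1.87-fold), a call lost without MEF replicate 2 (0.83), and Hoxc13 did not pass (0.47 ± 0.25).

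**Figure D4:**
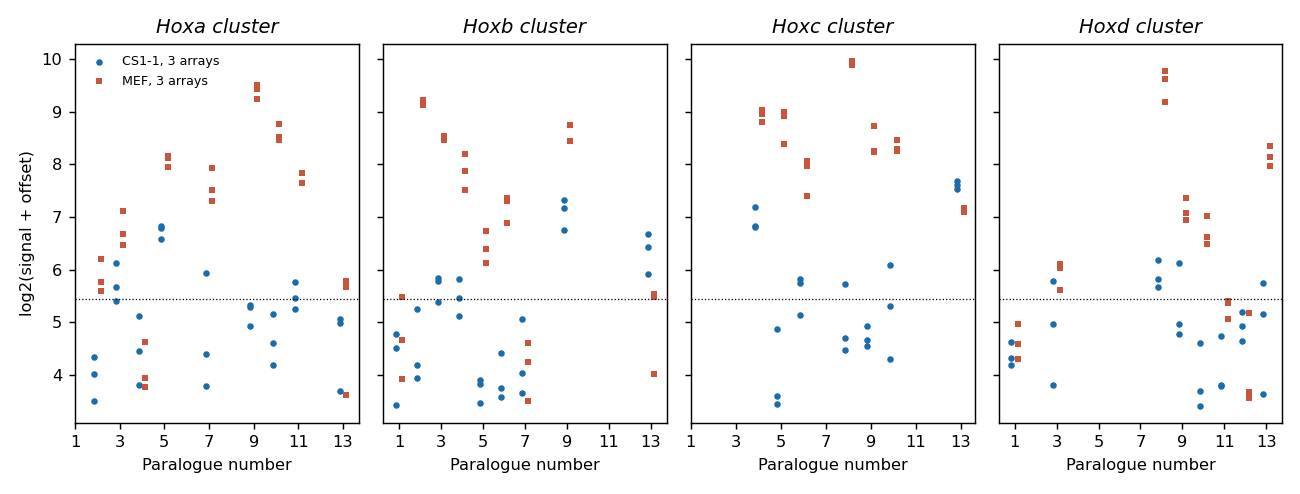
Level of each matched Hox gene on each array as log2(signal + 9.70), by cluster and paralogue number; blue circles are the 3 CS1-1 arrays, red squares the 3 MEF arrays, and the dotted line the 40th percentile of MEF arrays (5.44). In all 4 clusters MEF values stand above the line for most of the genes, up to 9.96 for Hoxc8, while the CS1-1 values of 22 genes lie near or under it.

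Most of the LIF pathway was higher in CS1-1, with its shared transducers as exceptions. The receptor subunit Il6st (gp130) and the kinases Jak1 and Jak2 were the 3 lower members of 16 tested (-1.19, -1.93 and -1.66), and Stat3 did not pass (-0.81 ± 0.12). The 12 higher members (75.0%) included the targets Socs2 (3.23), Pim1 (3.39), Gbx2 (3.77), Klf4, Klf5 and Tfcp2l1. The receptor Lifr (1.19) and the kinase Tyk2 (1.14), named after their values were seen, were also among the higher members but fell short of 2-fold with the mean over their probe sets (0.53 and 0.88).

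Of 34 ERK and Wnt response genes, 13 were higher (38.2%), 12 lower (35.3%) and 9 did not pass. Targets of Wnt signalling, the pathway on which the GSK3 inhibitor of 2i acts, were higher for Sp5 (5.86), Cdx1 (5.76), Axin2 (2.86) and Notum (2.57). Lgr5, another Wnt target, was lower (-2.90 ± 0.46). Targets of the ERK pathway, on which the other inhibitor of 2i acts, were lower for Fosl1 (-5.90), Dusp4 (-3.22) and Ier3 (-3.18), but Etv5 was higher (3.73 ± 0.09). Jun (-0.74) and Spred1 (-0.72) did not pass.

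Replication genes were higher in CS1-1. Of 49 S phase genes, 38 were higher (77.6%; median 1.65) and none was lower. The largest differences were those of the replication initiation genes Mcm10 (2.98), Orc1 (2.80) and Gins1 (2.67), of Uhrf1 (2.76) and of the ligase Lig1 (2.60). The ribonucleotide reductase genes Rrm1 (0.02) and Rrm2 (0.40) did not pass. Of 42 G2 and M phase genes, 18 were higher (42.9%; median 0.94) and none was lower. Ect2 (2.20), Bub1 (2.10), Espl1 (2.08) and Ccnb2 (1.88) passed, and Cdc20 (0.53), Ube2c (0.83) and Cks2 (0.94) did not.

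Cyclins and inhibitors of G1 moved both ways, with 4 of 23 higher and 8 lower. Cyclin D2 (Ccnd2) read 6.58, 6.94 and 6.60 in CS1-1 and 14.15, 14.14 and 14.17 in MEF. No array of one group came near the other, and the difference was 175-fold (-7.45 ± 0.19; adjusted p = 3.39e-18, limma). Ccnd1 (-1.24) and Cdk6 (-1.99) were lower, Ccnd3 (0.66) and Cdk4 (-0.13) did not pass, and Cdk2 (1.52) and its activator Cdc25a (1.91) were higher. Among the inhibitors, Cdkn1c (-4.14), Cdkn2b (-3.62) and Cdkn1a (p21, -2.06 ± 0.14) were lower. Cdkn2a, the Arf and p16 locus, did not pass (0.69 ± 0.26), at 8.31, 8.66 and 8.27 against 7.79, 8.08 and 7.32.

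Genes of p53 and its targets were mixed, with 6 of 29 higher (20.7%) and 8 lower (27.6%; 5 with the mean over probe sets). Both shares were near those over all tested genes (23.6% and 22.5%), so the list did not stand apart. The death receptor Fas was at least 11-fold lower, and Phlda3 (-2.41), Plk2 (-2.16; -0.70 and short of 2-fold with the mean over its probe sets) and Ccng1 (-1.64) were lower with Cdkn1a. Tigar (2.46), Ddb2 (2.36), Xpc (1.44) and the inhibitor Mdm4 (1.68) were higher. Repair genes were higher in 27 of 32 tested (84.4%; median 2.23), and none was lower. Among them were Rad54b (3.70), the telomere protein Terf1 (3.70), the Fanconi protein Fanci (3.45) and the uracil glycosylase Ung (3.38), and the Brca1 partner Bard1, near background in MEF, was at least 6.59-fold higher. Atm (0.88) and Terf2 (0.61) did not pass.

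Among DNA methylation and Tet enzymes, 11 of 18 were higher (61.1%) and 2 were lower. Tet1, which oxidises methylcytosine, read 12.71, 12.84 and 12.71 in CS1-1 and 6.11, 6.56 and 5.90 in MEF, a 94.5-fold difference (6.56 ± 0.16; adjusted p = 3.24e-18, limma). Dnmt3b (4.21), Tet2 (3.29), Uhrf1, the imprint guardian Zfp57 (2.66) and Dnmt3l (2.51) were higher. Dnmt3a did not pass (-0.52 ± 0.14), so the de novo enzymes were unequal. The methyl-binding genes Mbd1 (-1.60; -0.68 with the mean over its probe sets) and Mbd2 (-1.34) were the 2 that were lower.

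Of 44 polycomb and remodelling genes, 19 were higher (43.2%), 5 were lower (11.4%) and 20 did not pass. Ezh2, the H3K27 methyltransferase, was 4.09-fold higher (2.03 ± 0.09), and its cofactors Jarid2 (4.24), Epop (4.53) and Mtf2 (3.42) differed more. In the PRC1 complex Cbx7 was higher (5.56) and Bmi1 lower (-1.45). In the BAF complex Smarca2 (-2.68), Smarcc2 (-1.39) and Smarcd3 (-1.26), subunits linked to differentiated cells, were lower, while Smarcc1 did not pass (0.73).

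In the Lin28 and let-7 axis, 7 of 13 were higher and 1 was lower. Lin28a, which blocks let-7 maturation, was at least 21-fold higher and Trim71 was higher by a log2 difference of 6.21 ± 0.14. Hmga2, a let-7 target, was lower (-4.43 ± 0.15).

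Imprinted genes showed no common direction. Of those read from the paternal copy, 6 of 19 were higher (31.6%) and 7 were lower (36.8%). Of those read from the maternal copy, 7 of 26 were higher (26.9%; 4 without MEF replicate 1) and 7 lower (26.9%). The maternal shares were near those over all tested genes (23.6% and 22.5%). The growth regulators Igf2 and Grb10 (-4.96 ± 0.09) were lower, as were Ndn (-5.34), Dlk1 (-3.91) and Airn (-3.44). Phlda2 (3.91), Cobl (5.22) and Zdbf2 (1.75) were higher. Meg3 did not pass at its main probe set (0.59 ± 0.11), and its probe sets disagreed, with -0.98 when they were averaged.

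Energy genes differed in single members. Of 24 glycolysis genes, 9 were higher (37.5%) and 4 lower (16.7%). The glucose transporter Slc2a3 (Glut3) was the largest (6.27 ± 0.07), followed by Aldoc (4.81), Ldhb (2.87) and Pdk1 (2.81), while Ldha (-0.28) and Pgk1 (0.27) did not pass and Eno2 (-2.80) and Eno3 (-2.66) were lower. Of 38 oxidative phosphorylation subunits Cox7a1 alone passed (4.57 ± 0.15), which is 2.63% of them, and 2 were higher with the mean over probe sets. In one-carbon and amino acid metabolism, 11 of 28 were higher, with the glycine cleavage enzyme Gldc (4.75), Aldh1l1 (3.89) and Shmt1 (2.97), and Aldh1l2 was lower (-4.02). Sterol and fatty acid genes were lower in 7 of 28, led by Hsd17b7 (-2.88), and higher in 4 (2 without MEF replicate 1 or when tested against 2-fold). Lysosomal genes were lower in 9 of 40 (22.5%), with the protease genes Ctsk (-4.65) and Ctsh (-4.08). They were higher in 4, among them the regulators Tfeb (3.07) and Mitf (1.81). The lower share of lysosomal genes equals that over all tested genes (22.5%), and that of sterol and fatty acid genes was close to it. Neither list thus stood apart as lower, and the higher shares of both lay below the 23.6% of all tested genes.

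Of 42 MHC class I and interferon-responsive genes, 13 were lower (31.0%; 8 when tested against 2-fold) and 9 higher (21.4%). B2m, the light chain of MHC class I, read 10.70, 10.80 and 11.04 in CS1-1 and 13.49, 13.40 and 13.62 in MEF, 6.30-fold lower (-2.66 ± 0.10). H2-D1 (-2.18), Ifit2 (-4.52), Psmb8 (-3.06) and Gbp2 (-2.58) were lower too. Xaf1 (4.30), Ifitm1 (3.68), Oas1a (2.83) and Bst2 (2.38) were higher, so interferon-responsive genes stood on both sides.

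Sex chromosomes differed as well. Xist, the RNA that silences an X chromosome in female cells, read 8.26, 8.21 and 8.16 in CS1-1 and 12.69, 12.78 and 12.82 in MEF (-4.55 ± 0.12; adjusted p = 5.22e-18, limma). The Y-linked Eif2s3y read 4.04, 4.44 and 4.20 in CS1-1, near background, and 9.21, 9.35 and 8.62 in MEF, at least 12.3-fold lower. MEF thus read above background for both, and CS1-1 for Xist only. Uty, also on the Y chromosome, was lower (-1.55 ± 0.27), and the X-linked Kdm6a was higher (1.27 ± 0.12; 0.93 and short of 2-fold with the mean over its probe sets). Over the X chromosome, 80 of 413 tested genes were higher (19.4%) and 128 lower (31.0%), against 23.8% and 22.2% of 12278 autosomal genes, and the median differences were -0.23 and 0.12. The sex of either culture was not given in the labels used here, and its part in these values was not tested.

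Markers of other cell types were read in both cultures, and their part in the differences was not tested. The lists are given by their tested members, and summed signals are over all matched members in signal units. For macrophages, 7 of 11 tested markers were lower in CS1-1 and 2 higher, with summed signals of 4512 to 4837 in CS1-1 and 7048 to 7527 in MEF. Csf1r (-3.09), Lyz2 (-2.98), Cd14 (-2.91) and Tyrobp (-2.40) were above background in MEF, while Laptm5 (4.42) and Cd68 (2.67) were higher in CS1-1. Endothelial markers stood on both sides (5 of 10 higher, 3 lower; summed signals 2145 to 2245 in CS1-1 and 2630 to 3115 in MEF), with Pecam1, also an ES cell gene, and Vwf (4.88) higher and Flt1 (-4.41) lower. Of 10 matched fat cell genes 9 were near background in CS1-1 and 3 in MEF (summed signals 838 to 1145 and 3166 to 3670), and Fabp4 (at least 27.9-fold) was among 4 that were lower.

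For muscle, 6 of 13 were lower and 3 higher (summed signals 7707 to 8118 in CS1-1 and 3666 to 3902 in MEF), among them Acta1 (-3.77) and Actc1 (-4.11), and Mylpf was higher (4.64). Of the cartilage markers 3 of 7 were lower, including Sox9 (-3.39), and 5 were lower without MEF replicate 2. Col9a3, given above, was the 1 higher member. Neural markers stood on both sides, with 5 of 10 higher, among them Nefl (5.97) and Stmn2 (3.12), and 3 lower. The lower ones were Ncam1 (-3.44), Map2 (-2.28) and Nes (-1.65). With an offset of 50, the 60th-percentile filter, the mean over probe sets or tested against 2-fold, 3 were higher. For primitive endoderm, 9 of 14 were lower, largely through Pdgfra, Dab2 (-5.57) and the matrix genes named above, whereas the defining factor Sox17 did not pass at its main probe set (0.30). The 2 higher members were Lama1 and Gata4, given above. Trophoblast markers were higher in 6 of 10, with Tfap2c (6.09), and lower in 2, Fgfr2 (-3.45) and Gata3 (-1.59). Early mesoderm and ectoderm markers were higher in 4 of 9 and lower in 2, Kdr (-2.78) and Mesp1 (-1.35). With the 60th-percentile filter, or tested against 2-fold, the higher counts were 3 and 2, and 1 of each list was lower. Of the keratinocyte genes 1 of 4 was higher (Sfn, 2.78), and the single tested genes of red blood cells (Epor, 0.32) and 2-cell-like cells (Usp17la, 0.23) did not pass.

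The same genes were then compared between CS1-1 and R1, since the MEF arrays cancel in that contrast and it tests whether the difference from MEF was unlike in the other diploid ES line. Over all 12098 genes tested there, 1174 passed (9.70%), 499 higher in CS1-1 (4.12%) and 675 lower (5.58%). Among the 5878 genes that passed against MEF, 825 also differed between the lines, 312 above R1 and 513 below it. Of those 513, 437 were genes lower in CS1-1 than in MEF, so R1 stood between CS1-1 and MEF or above MEF for them. Of the 312, 284 were higher than in MEF and 28 lower.

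Fibroblast lists held many of the genes that were lower than in R1. Of the collagens that passed against MEF, 15 of 26 were below R1 (median CS1-1 minus R1 -1.44), of other matrix proteins 21 of 36 (-1.28), of matrix enzymes 15 of 33 (-1.03), of secreted factors 17 of 38 (-0.91) and of caveolar genes 4 of 6 (-1.51). Of these, 20, 32, 26, 31 and 6 were bright enough in CS1-1 or R1 to be tested there. Col1a2, for instance, was at 9.95 in CS1-1, 13.32 in R1 and 14.96 in MEF, and 11 of the 12 fibroblast markers were lower in CS1-1 than in R1. The exception was Pdgfrb, at 9.22 in CS1-1 and 8.93 in R1. Whether other cells in either ES culture contributed to these values was not tested. None of the 38 S phase genes, 27 repair genes or 24 polycomb and remodelling genes that passed against MEF reached 2-fold between the lines together with an adjusted p under 0.05. Smaller differences were called by that p alone (limma) in 15, 10 and 6 of them, such as Rad54b (0.85) and Bmi1 (-0.63), and in 37.1% of all genes tested there. Of the 28 pluripotency factors 3 were above and 1 below R1.

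The largest differences between the lines were of another kind in each direction. Below R1, Eif2s3y led (-7.25 ± 0.23; adjusted p = 8.83e-15, limma), at 11.50, 11.50 and 11.44 in R1. Also below R1 were Ccl2 (-4.45), the matricellular gene Ccn4 (-4.25), Il6 (-4.24), the interferon-inducible Ifi202b (-4.10) and Tagln (-4.10). For the last 5, the R1 arrays lay between those of CS1-1 and MEF, for example 9.73, 9.45 and 9.69 for Tagln. Above R1, Ubd (a ubiquitin-like protein) read 9.26, 9.27 and 9.25 in CS1-1, 3.72, 5.18 and 4.53 in R1 and 4.89, 4.53 and 4.73 in MEF. R1 and MEF both lay near background, and the difference from R1 was 4.78 ± 0.39 (adjusted p = 1.05e-08, limma). Apoa2 (an apolipoprotein, 3.86), the oligodendrocyte factor gene Olig1 (3.69), Trim34a (3.51), D430019H16Rik (3.51) and Ndufa4l2 (3.25) were likewise higher in CS1-1 than in both R1 and MEF.

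**Figure D5:**
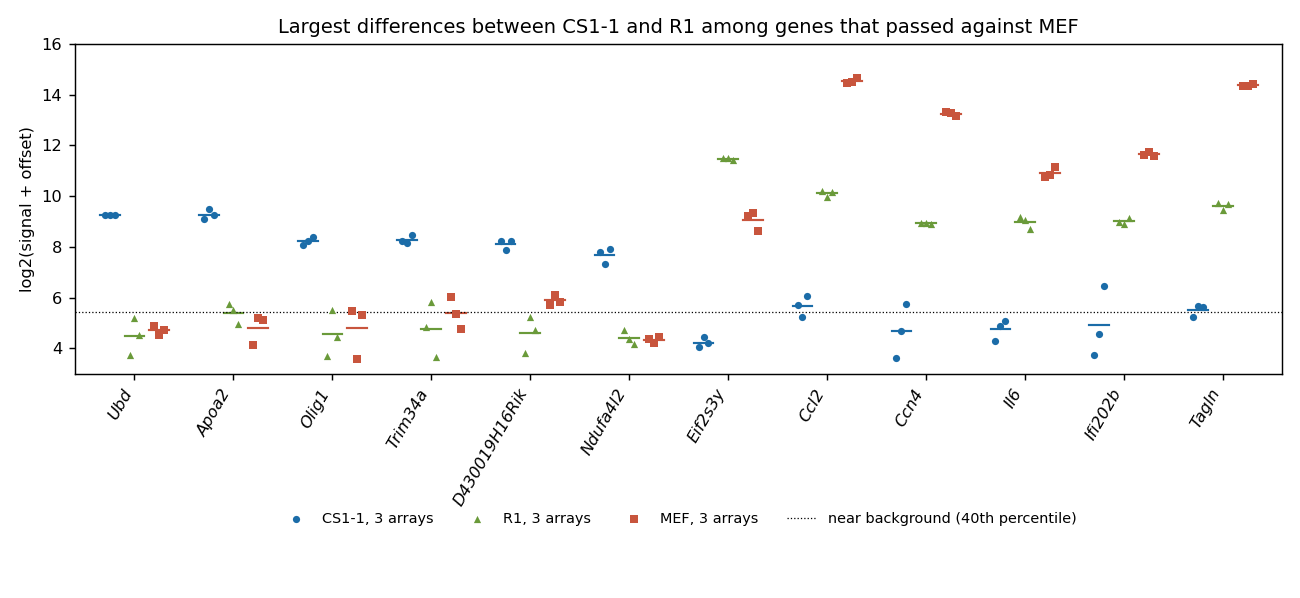
Level of the 12 genes with the largest differences between CS1-1 and R1 among those that passed against MEF, as log2(signal + 9.70) on each array; blue circles are CS1-1, green triangles R1, red squares MEF (3 arrays each), bars the group means, and the dotted line the 40th percentile of MEF arrays (5.44). The first 6 genes are highest in CS1-1, and 5 of the other 6 have R1 between CS1-1 and MEF, while Eif2s3y is highest in R1 at 11.48.

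The 4 pluripotency factors that passed between the lines were Otx2, lower in CS1-1 by a log2 difference of -2.75 ± 0.17, and Gbx2 (1.45 ± 0.21), Hesx1 (1.86 ± 0.25) and Sox15 (1.27 ± 0.28), higher in CS1-1. Hesx1 and Sox15 were named after their values were seen. Zfp42, at 13.14 in CS1-1 and 14.07 in R1, fell just short of 2-fold (-0.93 ± 0.17). Differences between the lines were 0.05 ± 0.25 for Nanog, 0.01 ± 0.11 for Pou5f1 and -0.06 ± 0.19 for Sox2, each smaller than its SE.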

How the data were processed

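RNA of cultured mouse cells was hybridised to Affymetrix mouse whole-genome arrays. The deposited values are log2 signals of 45101 probe sets; MAS5 is named in the submitters' processing notes, with no version. The log base is not stated and was read from the values, whose 2% trimmed mean after raising from base 2 was 500.0 on every array, so depth has no meaning here and the 3 arrays per group limit the precision. Of the probe sets, 34945 carried 1 gene symbol in the platform annotation, 932 several and 9160 none, and 64 were controls. For each of 18193 genes the probe set brightest on average over the 21 arrays was kept (9010 genes had several). Chromosomes were taken from RefSeq (GRCm38.p6), and a check of the names against it changed none.

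Signals were raised from base 2, an offset of 9.70 (median over arrays of the 20th percentile) was added and log2 was taken again. Group means of all 7 groups were fitted over the 21 arrays in R 4.3.3 (limma 3.58.1 and statmod 1.5.0) using a variance trend and robust moderation, so all groups share 1 estimate of the spread; tests are 2-sided. Where a group was near background, its level in a fold was replaced by the 40th percentile, which gives a lower bound. Without detection calls, near background is a rank on the array and not a measured absence. The workflow was tested on simulated data. Lists are described by counts and medians, with no set test; genes of a list that are not on the table were not analysed here.

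The text names genes from a rule: the 15 largest rises and falls with non-overlapping ranges, up to 5 members per list and direction with the largest difference, up to 3 members per list that did not pass, the 6 largest differences from R1 in each direction, and a set of key genes. Members, lists and the rule were chosen with earlier results of these data known. Alternatives changed the arrays fitted, the scaling, the offset, the filter, the choice of probe set, the moderation and the threshold, and left out each array in turn; leaving out arrays for the comparison with R1 was added after seeing the data.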

Additional observations from a re-analysis of the deposited data

Results flagged for a closer look

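The difference from MEF was unlike in CS1-1 and R1 for the following genes, the 6 largest in each direction, by limma's test of CS1-1 minus R1 in which the MEF arrays cancel. Above R1 were Ubd (4.78), Apoa2 (3.86), Olig1 (3.69), Trim34a (3.51), D430019H16Rik (3.51) and Ndufa4l2 (3.25). Below R1 were Eif2s3y (-7.25), Ccl2 (-4.45), Ccn4 (-4.25), Il6 (-4.24), Ifi202b (-4.10) and Tagln (-4.10). Values are log2 differences over 3 arrays per line. All 3 arrays of one line lay beyond those of the other for each gene, but the genes were picked for the largest differences. That separation therefore adds no support.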

How the results depend on the processing

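The counts of genes higher and lower in CS1-1 stayed within 1.5 times of 3012 and 2866 under every alternative run. They were lowest when tested against 2-fold with limma's treat (2037 higher and 2029 lower) and highest with no filter on low signals (3253 and 3028). Leaving out single arrays gave 2966 to 3054 higher and 2821 to 2918 lower. An offset of 50 gave 2476 and 2461, and the mean over probe sets 2646 and 2519. The 825 genes that also differed between CS1-1 and R1 became 808 to 841. Replicate numbers were not said to pair arrays, and arrays of CS1-1 and MEF with the same number had correlations of their deviations of 0.0177, -0.0016 and 0.0262. With the replicate number as a block, 3014 genes were higher and 2865 lower, and 5873 of the 5878 genes passed again in the same direction. For the comparison with R1 the block gave 827 genes.

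Among all 5878 genes that passed, the direction was opposite in 13 with the mean over probe sets and in 1 with an offset of 1. It was opposite in 11 with the probe set highest over the 6 arrays, and in 11 without _x_at and _s_at probe sets. Of 253 called genes named in the text, none reversed. With an offset of 50, 7 fell short of 2-fold (Cdh3, Col13a1, Col9a3, Foxd3, Gata4, Hoxb13 and Uty), with the mean over probe sets 7 (Cdh3, Kdm6a, Lif, Lifr, Mbd1, Plk2 and Tyk2), with an offset of 1 Ptn (-0.36), with quantile normalisation Gata4 (0.97), and without _x_at and _s_at probe sets Srf (-0.91). Fn1 and Meg3, which had not passed, reversed with the mean over probe sets (0.24 and -0.98), and Meg3 also without _x_at and _s_at probe sets (-0.87); in both genes probe sets disagree. Sox17 passed as higher with the mean over probe sets (1.33), as did Plod2 as lower (-1.17). Tested against 2-fold with treat, 19 lost their adjusted p while their differences stayed as given. In that test 8 ERK and Wnt response genes were higher in place of 13. It also gave 2 higher G1 cyclins and inhibitors in place of 4, 1 lower LIF pathway member in place of 3, 3 higher paternally expressed genes in place of 6 and 4 lower macrophage markers in place of 7, and with the mean over probe sets 2 glycolysis genes were lower in place of 4. With the filter at the 60th percentile 3 endothelial markers were higher in place of 5, and 3 muscle and 2 fat cell markers lower in place of 6 and 4. The cause of these changes beyond the setting itself was not tested.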
